A study of Homo sapiens with 6 samples.

Results

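The inhibitors of apoptosis (IAPs) and their mitochondrial antagonists were followed through RNF25 knockdown as a set of 8 genes, BIRC2, BIRC3, XIAP, BIRC5, BIRC6, BIRC7, DIABLO and HTRA2, chosen by symbol. All 8 were found among the 30267 genes of the deposited table, and 7 passed the filter on low values, while BIRC7 did not. The cells were SW839, an established renal cell carcinoma line, grown without an apoptosis-inducing drug as far as the labels say. They carried either a short hairpin RNA against RNF25 (shRNF25) or a pLKO control vector (shControl), with 3 libraries in each group. Per the study's methods, both kinds of virus were selected with puromycin to give stable lines. The shRNF25 libraries share a single hairpin name, so an effect of that hairpin on other transcripts cannot be told apart from the loss of RNF25. The study's design text calls the libraries biological triplicates without saying whether they came from separate infections, and p-values here measure the spread between these libraries.

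IAPs carry zinc-binding BIR domains, and several also carry a RING domain that makes them ubiquitin ligases. XIAP binds and inhibits caspases directly, whereas cIAP1 (BIRC2) and cIAP2 (BIRC3) ubiquitinate RIPK1 and other proteins at the TNF receptor and keep the noncanonical NF-κB kinase NIK low. SMAC (DIABLO) and HTRA2 are released from mitochondria in dying cells and displace caspases from IAPs. BIRC3 is a classical NF-κB target gene, and the study asked through this comparison how RNF25 acts on apoptosis.

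The sequences below show the promoters of the neighboring cIAP genes, because BIRC3 fell in the knockdown while BIRC2 was not called. They are RefSeq promoters on GRCh38.p14 from 250 bases before to 50 bases after a transcription start, plus strand, 5′ to 3′. BIRC3 lies at chr11:102317234-102317533 and BIRC2 at chr11:102346964-102347263. Capitals mark matches to the κB consensus, searched on both strands.
BIRC3: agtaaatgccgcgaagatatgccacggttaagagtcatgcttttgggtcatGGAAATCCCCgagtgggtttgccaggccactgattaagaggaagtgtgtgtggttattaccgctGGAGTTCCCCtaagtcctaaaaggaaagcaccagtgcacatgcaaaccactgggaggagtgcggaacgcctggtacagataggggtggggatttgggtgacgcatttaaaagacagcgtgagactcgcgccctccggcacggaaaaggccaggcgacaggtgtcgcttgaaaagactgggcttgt
BIRC2: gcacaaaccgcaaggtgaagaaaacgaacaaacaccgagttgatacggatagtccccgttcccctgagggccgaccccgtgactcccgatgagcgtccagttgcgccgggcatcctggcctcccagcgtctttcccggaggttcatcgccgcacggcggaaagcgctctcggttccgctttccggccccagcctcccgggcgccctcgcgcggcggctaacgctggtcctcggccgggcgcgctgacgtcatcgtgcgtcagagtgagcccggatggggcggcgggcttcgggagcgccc
The BIRC3 promoter held 2 κB matches, GGAAATCCCC and GGAGTTCCCC, which began 199 and 135 bases before the start and read as the consensus on the opposite strand. No match was found in this BIRC2 promoter or in its other RefSeq promoter. Of all 35116 RefSeq promoters of this length, 5.91% held at least 1 match and 0.738% held 2 or more. RefSeq promoters were matched for 7 of the 8 genes, BIRC5 being the exception. BIRC6 and BIRC7 each held 1 match in a single promoter, and XIAP, DIABLO and HTRA2 held none in these windows. A match is a description of the letters, and binding was not measured in these files.

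Between 18647460 and 19943154 reads were counted on genes per library. RNF25 itself had normalized counts of 694, 534 and 536 in shControl and 214, 246 and 265 in shRNF25, so the knockdown libraries held 41.1% of the control mean. shControl replicate 1 stood apart from the other 2 controls, with a chi-square per degree of freedom over genes of 110 against replicate 2 and 104 against replicate 3. This ratio was 21.6 between shControl replicates 2 and 3 and 3.72 to 5.35 among the shRNF25 libraries. Values without shControl replicate 1 are therefore given beside the results that moved most. Of 15 markers of renal carcinoma or tubule fixed for this work, 9 passed the filter, among them PAX8 (76.7 to 140.3) and the keratins KRT8 and KRT18. VIM, the gene of vimentin, was the called gene of this list and rose from 355 ± 133 to 832 ± 43.4 (SD, n = 3, adjusted p = 0.00805 from limma). The groups also did not overlap for PAX8, KRT19 and EPCAM, which were lower in shRNF25, and KRT8, which was higher, none of them called. Such a separation held for 42.5% of all tested genes. CA9, a carbonic anhydrase typical of clear cell tumors, lay at 1.85 to 50.7 and did not pass the filter. CDH6 (0 to 13.0), LHX1 (0 to 4.62) and CUBN (2.05 to 14.6) of the same list did not pass it either. NDUFA4L2 passed at 10.5 to 33.5, and PAX2 and LRP2 were not analysed here. Leukocyte markers summed to 30.5 to 65.8 normalized counts per library. Of 3 tested endothelial markers, CDH5 was lower and KDR higher in shRNF25, and 3 tested fibroblast markers, mostly COL1A1, were not called. Any part of these in the results was not tested.

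Genes were called when the Benjamini-Hochberg adjusted p-value from limma, fitted to log2(normalized count + 1) over 16554 tested genes, was below 0.05 and the fold change was at least 1.5, the criteria of the study. Of the 7 tested IAP and antagonist genes, 1 was called lower in shRNF25, where 7.1% of all tested genes were. None was called higher, where 8.65% of all tested genes were. By normalized count, the 2 groups did not overlap in 3 of the 7 genes, and 42.5% of all tested genes showed such a separation. The median log2 fold change was -0.04 over the 7 genes and -0.01 over all tested genes.

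**Figure D1:**
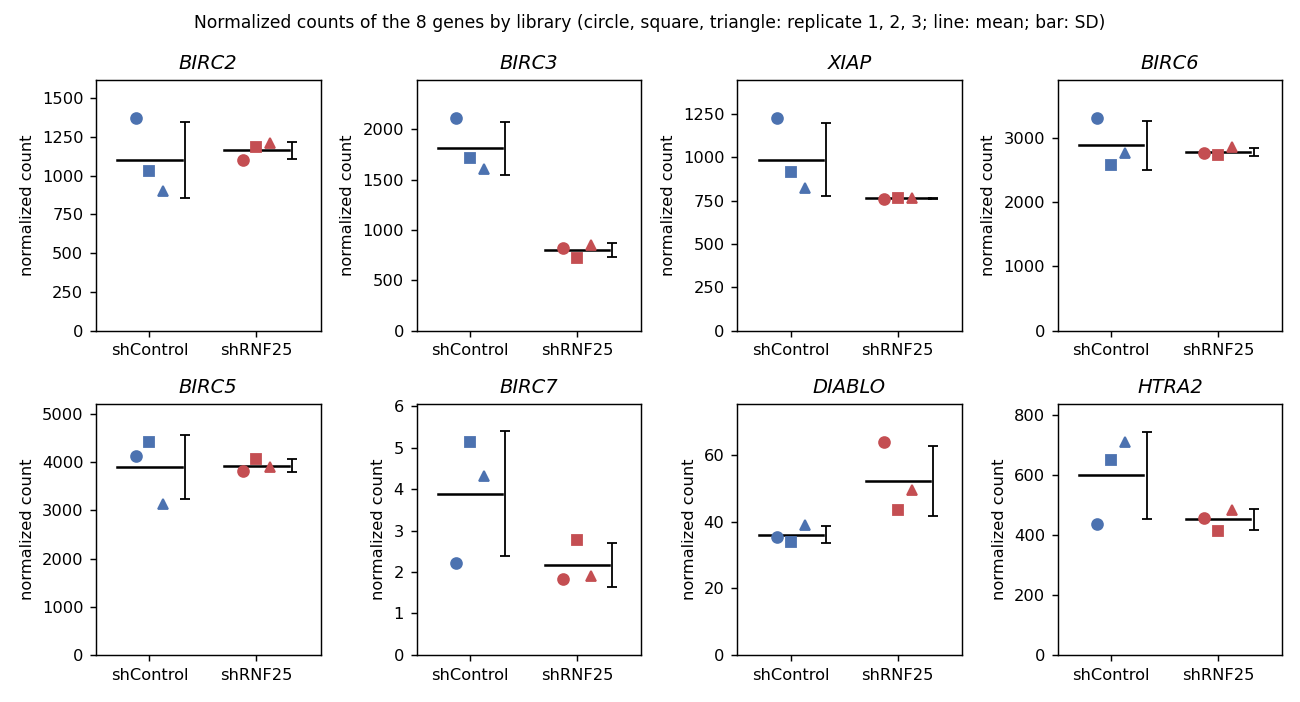
Normalized counts (vertical axes, each from 0) of the 8 genes in each of the 3 shControl (blue) and 3 shRNF25 (red) libraries, with the group mean as a line and the SD as a bar. BIRC3 lay at 1608 to 2113 in shControl and at 718 to 854 in shRNF25, whereas the groups overlapped for BIRC2, BIRC5, BIRC6, BIRC7 and HTRA2.

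BIRC3, the gene of cIAP2, was the member that fell. Its GENCODE 29 gene spans bases 102317450 to 102339403 of chromosome 11 (GRCh38), plus strand. The controls held normalized counts of 2113, 1712 and 1608 (replicates in order), and the knockdown libraries held 818, 718 and 854. Every knockdown library was below every control, with a mean 44.0% as high. In bulk RNA, fewer cells expressing a gene and less of its RNA per cell cannot be told apart. limma put the log2 fold change at -1.18 (standard error 0.13, 95% interval -1.48 to -0.88, adjusted p = 0.000479). An exact permutation test (two-sided) over the 6 libraries returned p = 0.1, the lowest this design can give. The log2 fold change without shControl replicate 1 was -1.06.

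BIRC2, the gene of cIAP1, starts 7807 bases beyond the end of BIRC3 on the same strand, from 102347211 to 102378670. Its normalized count was 1373, 1029 and 902 in shControl and 1103, 1183 and 1209.6 in shRNF25. By normalized count the knockdown libraries lay inside the range of the controls. Before scaling they did not all do so, at 1242, 1003 and 836 reads in shControl and 1210, 1281 and 1269 in shRNF25. The limma estimate on the log2 scale was 0.10 (adjusted p = 0.674, standard error 0.15), with a 95% interval of -0.24 to 0.45 that does not reach a 1.5-fold change in either direction. Without shControl replicate 1 the estimate was 0.27, and with quantile normalization it was 0.19 (adjusted p = 0.388 from limma). The longest coding transcripts of BIRC2 and BIRC3 shared 11 words of 50 bases, which was 0.274% of the words in BIRC2 and 0.214% of those in BIRC3, so reads could be exchanged between the paralogs over little of their length.

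Because both cIAP transcripts come from adjacent genes, their ratio was taken within each library. Per kilobase of annotated exon, BIRC3 stood at 0.927, 1.00 and 1.07 times the level of BIRC2 in the 3 controls and at 0.447, 0.366 and 0.426 times in the 3 knockdown libraries. By this measure the cIAP2 and cIAP1 transcripts were at similar levels in shControl and the cIAP2 transcript was the lower of the pair in every shRNF25 library. The measure divides by all annotated exon bases, 7518 for BIRC3 and 4532 for BIRC2. Their longest coding transcripts have 5197 and 4066 bases, and those lengths would raise BIRC3 relative to BIRC2 in both groups. On the log2 scale the BIRC3 to BIRC2 ratio differed by -1.28 between the groups without overlap (exact permutation test, two-sided, p = 0.1, the lowest possible).

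The same test of the difference in change was made between BIRC3 and each of the other 7 genes. The log2 ratio of BIRC3 to the other gene was lower in shRNF25 by -1.69 for DIABLO, -1.20 for BIRC5, -1.13 for BIRC6, -0.83 for XIAP and -0.80 for HTRA2. The HTRA2 value was -0.47 without shControl replicate 1. For these and BIRC2, 6 comparisons in all, the groups did not overlap (exact permutation p = 0.1 each, 0.117 after Benjamini-Hochberg adjustment over 7 comparisons). All 7 ratios share the BIRC3 values, so they depend on each other and largely restate the fall of BIRC3. How often a ratio of BIRC3 to any other gene separates the groups was not counted. The ratio to BIRC7, which rests on very few reads, overlapped between the groups (-0.59, exact permutation p = 0.4). This ratio moved to -0.87 without overlap at a pseudocount of 5 (exact permutation p = 0.1) and to -0.20 without shControl replicate 1. A design of 3 against 3 cannot pass a threshold of 0.05 in this test.

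**Figure D2:**
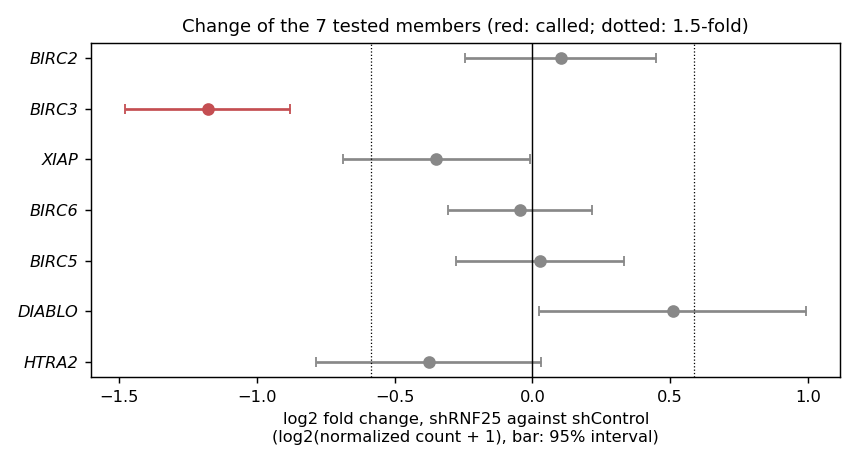
Log2 fold changes of the 7 tested genes (horizontal axis, log2(normalized count + 1) scale) with 95% intervals from limma, where red marks the called gene and dotted lines mark a 1.5-fold change. BIRC3 at -1.18 is the gene whose whole interval lies beyond the lower dotted line, and the intervals of BIRC2, BIRC5 and BIRC6 lie between the lines.

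XIAP, the IAP that inhibits caspases by direct binding, had a lower normalized count in every knockdown library without passing the test. The gene spans bases 123859724 to 123913979 of chromosome X. Its normalized count was 1228, 914 and 821 in shControl and 761, 764 and 767 in shRNF25. The knockdown values were nearly equal to each other, with an SD of 0.424% of their mean, and the lowest control, 821, lay above the highest of them. Before scaling, the groups overlapped, at 1111, 891 and 761 reads in shControl and 835, 827 and 805 in shRNF25. The log2 fold change was -0.35 (standard error 0.15, 95% interval -0.69 to -0.01, adjusted p = 0.131 from limma). Without shControl replicate 1 it was -0.18 (adjusted p = 0.111). Other genes' transcripts held 4.98% of the 50-base words in the XIAP transcript, the pseudogene XIAPP1 ranking first among them by shared words.

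BIRC7, the gene of livin, is an IAP known from melanoma. It was near the floor, with 2, 5 and 4 reads in shControl and 2, 3 and 2 reads in shRNF25. These counts put it below the filter, and no fold change is given. MITF, the melanocyte factor that drives BIRC7 in melanoma, was at 500 ± 105 and 392 ± 27.7 in the controls and the knockdown (SD, n = 3, adjusted p = 0.168 from limma). The IAP gene NAIP lay at 2.05 to 2.21 normalized counts in shControl and at 2.86 to 6.38 in shRNF25, also below the filter, and BIRC8 was not analysed here.

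BIRC6, the gene of the giant IAP also called BRUCE or apollon, has both a BIR domain and a ubiquitin-conjugating domain. Its exons in GENCODE 29, on chromosome 2 from 32357028 to 32618899, cover 17858 bases, the longest of the set. The normalized count was 3315, 2583 and 2768 in shControl and 2763, 2739 and 2858 in shRNF25. All knockdown values lay within the control range, and the log2 fold change was -0.04 (standard error 0.12, 95% interval -0.31 to 0.22, adjusted p = 0.819 from limma). It turned to 0.06 without shControl replicate 1. UBA6, the activating enzyme that charges BIRC6 with ubiquitin, was at 2639 ± 662 and 1976 ± 7.94 in the controls and the knockdown (SD, n = 3, log2 fold change -0.39, adjusted p = 0.115 from limma). Of 13 BIRC6 partners and substrates tested, none was called in either direction, and their median log2 fold change was -0.27, or -0.17 without shControl replicate 1.

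BIRC5, the gene of survivin, is expressed mainly in dividing cells, where survivin is a subunit of the chromosomal passenger complex. The gene spans bases 78214186 to 78225636 of chromosome 17. Its normalized count was 4131, 4414 and 3142 in shControl and 3817, 4072 and 3905 in shRNF25. The knockdown libraries fell inside the control range, and the log2 fold change was 0.03 (standard error 0.14, 95% interval -0.28 to 0.33, adjusted p = 0.906 from limma).

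The other subunits of that complex did not all show this pattern. AURKB, the mitotic kinase that survivin localizes, fell from 1526, 1731 and 1321 in the controls to 794, 861 and 905 in the knockdown libraries (log2 fold change -0.83, adjusted p = 0.00217 from limma). INCENP, the scaffold of the complex, was at 4538, 4209 and 3523 in shControl and 2960.4, 3438 and 3285 in shRNF25 (-0.34, adjusted p = 0.0833), and CDCA8, the gene of borealin, was at 1595 ± 324 against 1430.1 ± 208 (SD, n = 3, -0.15, adjusted p = 0.563 from limma). The log2 ratio of AURKB to BIRC5, a pair chosen after the values had been seen, was -1.35 ± 0.09 in shControl and -2.20 ± 0.08 in shRNF25 (SD, n = 3), which is given as a description.

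Among 11 tested genes of the chromosomal passenger complex and its regulators, AURKB was the single gene called, and all 11 had log2 fold changes below 0 (median -0.30). Of 25 tested mitosis genes, 2 were called lower, MYBL2 (-0.91) and UBE2C (-0.69), and 0 higher (limma, the same criteria), with a median of -0.35. The summed level of the mitosis list was 103462, 77306 and 60150 in the controls, highest in replicate 1, against 55140 to 62649 in the knockdown. Without shControl replicate 1, the median of the mitosis list was -0.09, while the same 2 genes and AURKB were called. The share of dividing cells in each library was not measured.

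DIABLO, the gene of SMAC, was the member with higher values in every knockdown library. Its normalized count was 35.4, 33.9 and 38.9 in shControl and 63.8, 43.4 and 49.6 in shRNF25. The groups did not overlap, but the counts were low, at 32 to 36 reads per control library and 47 to 70 per knockdown library. The log2 fold change was 0.51 (standard error 0.22, 95% interval 0.02 to 0.99) and did not pass the test (adjusted p = 0.126 from limma).

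Whether the DIABLO counts hold all reads of the gene was not tested. GENCODE 29 lists 2 gene models with the symbol DIABLO on the minus strand of chromosome 12, from 122207662 to 122227534 and from 122207663 to 122226568. The first shares 85.3% of its exon bases with the second and 48.5% with the overlapping model AC048338.1. A counter that drops reads falling on several genes loses such reads, and the annotation behind the deposited counts is not given in the sources used here. B3GNT4 on the opposite strand covers 39.0% of the exon bases of the first model, and it lay at 44.0 ± 10.4 in shControl and 29.4 ± 3.16 in shRNF25 (SD, n = 3).

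HTRA2, a mitochondrial serine protease whose processed form binds IAPs, had normalized counts of 437, 652 and 710.2 in shControl and 457, 416 and 485 in shRNF25. Replicate 1 of the controls lay among the knockdown values and the other 2 lay above them. The log2 fold change was -0.38 (standard error 0.18, 95% interval -0.79 to 0.03, adjusted p = 0.173 from limma). Without shControl replicate 1 it was -0.59 with an adjusted p of 0.00178 from limma, past both criteria, so that 2 of the 7 genes were then called lower. HTRA2 lies on chromosome 2 from 74529377 to 74533348, where exons of LOXL3 and AUP1 on the other strand cover 20.8% and 16.1% of its exon bases. Whether the counting used the strand is not stated.

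Compared per kilobase of annotated exon, survivin was the most abundant transcript of the set. In shControl the mean level was 1021 ± 175 for BIRC5, 243 ± 53.7 for BIRC2, 241 ± 35.4 for BIRC3, 199.8 ± 48.0 for HTRA2, 162 ± 21.3 for BIRC6, 109 ± 23.6 for XIAP and 2.49 ± 0.96 for BIRC7 (SD, n = 3). BIRC2, BIRC3, HTRA2 and BIRC6 overlapped with their neighbors in this order, whereas BIRC5 stood above them and XIAP below them in every control library. By its counts DIABLO came between XIAP and BIRC7 with either gene model, at 15.3 ± 1.09 or 5.32 ± 0.38 (SD, n = 3). Whether these counts hold all reads of DIABLO was not tested, so its place in this order is uncertain.

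In shRNF25 the levels were 1030.5 ± 33.9 for BIRC5, 257 ± 12.3 for BIRC2, 156 ± 3.51 for BIRC6, 151 ± 11.7 for HTRA2, 106 ± 9.34 for BIRC3 and 84.6 ± 0.36 for XIAP (SD, n = 3, normalized count per kilobase). By this measure BIRC3 went from the third to the fifth place and no longer overlapped with BIRC2 or HTRA2. Places in these orders depend on the length used for each gene. BIRC6 and HTRA2 were the only neighbors among these 6 genes whose libraries overlapped.

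**Figure D3:**
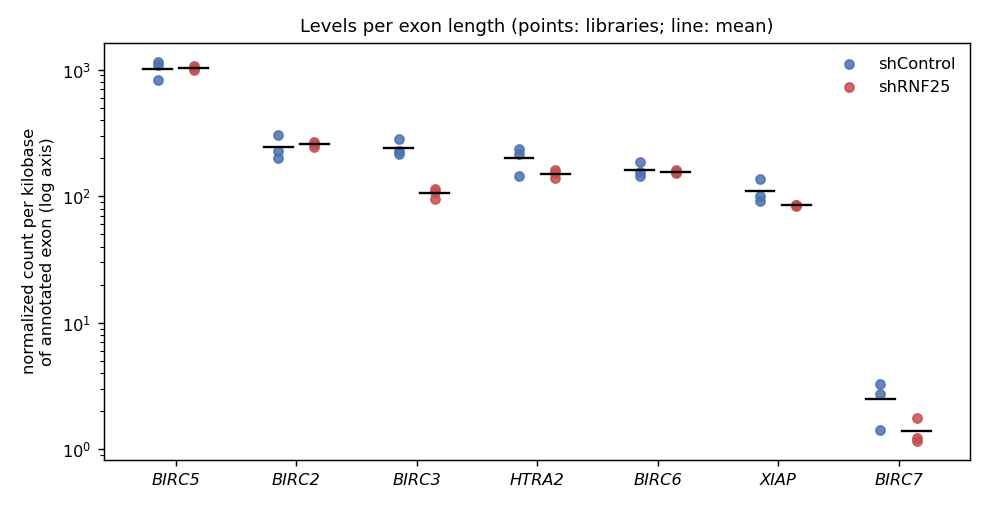
Normalized count per kilobase of annotated exon (vertical log axis) of 7 genes in shControl (blue) and shRNF25 (red), where points are libraries and lines are means. DIABLO is left out because it has 2 gene models. BIRC3 stands beside BIRC2 in shControl, at 214 to 281, and below it in shRNF25, at 95.6 to 114.

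The spread between libraries was wider in the controls for 6 of the 7 tested genes, DIABLO being the exception. The coefficient of variation had a median of 17.1% in shControl and of 4.78% in shRNF25. For those 6 genes, most of the spread behind each comparison came from the controls.

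Genes that act with the IAPs were taken from lists compiled by hand. In the list of cIAP signaling partners, 25 of 27 genes were tested, 2 were called lower and 0 higher (limma), with a median log2 fold change of -0.16. A share of 2 in 25 is close to the 7.1% of all tested genes called lower, and the same holds for the mitosis list, while the caspase and passenger complex lists each hold a single call among 9 and 11 genes. The called genes were NOD2, an intracellular peptidoglycan sensor, at 106, 115 and 82.0 in shControl and 10.9, 9.24 and 7.63 in shRNF25 (-3.31, adjusted p = 4.69e-05 from limma), and CD40, a TNF receptor family member that recruits TRAFs and cIAPs, at 552, 811 and 617 against 285, 257 and 293 (-1.23, adjusted p = 0.000965). RIPK1, the kinase that cIAPs ubiquitinate, was at 547, 577 and 529.9 in shControl and 841, 749 and 885 in shRNF25. Its log2 fold change of 0.58 had an adjusted p of 0.00729 from limma and lay just under the 1.5-fold criterion. The adaptor TRAF2, which carries the cIAPs to the receptor, had a log2 fold change of -0.16 (adjusted p = 0.593), TRAF1 of 0.31 (0.362) and MAP3K14, the gene of NIK, of 0.11 (0.580, all from limma).

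Of 9 caspase and apoptosome genes, 1 was called lower and 0 higher (limma). CASP10, an initiator caspase of death receptors, fell from 164, 175 and 167 to 60.1, 49.9 and 53.4 (log2 fold change -1.62, adjusted p = 0.000216 from limma). CASP9, the initiator caspase of the apoptosome, had a log2 fold change of -0.17 (adjusted p = 0.410 from limma).

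Among 10 tested IAP antagonists and their regulators, 0 genes were called in either direction (limma), and the median was -0.07. XAF1, an antagonist of XIAP, had a log2 fold change of -0.24 (adjusted p = 0.584). PARL, the mitochondrial protease that matures SMAC, varied widely, at 50.9 ± 32.2 in shControl and 84.2 ± 19.4 in shRNF25 (SD, n = 3, log2 fold change 0.89, adjusted p = 0.155 from limma). AREL1, a ligase that targets released antagonists, was at 3055 ± 74.2 and 2612 ± 38.4 (SD, n = 3, -0.23, adjusted p = 0.116 from limma). SEPTIN4, whose product ARTS binds XIAP, was below the filter.

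Like BIRC3, several genes fell in a list named NF-κB survival targets, which also holds a chemokine and an adhesion molecule. Of 19 tested genes of this list, which was compiled with earlier results of these data known and is not independent evidence of a direction, 8 were called lower and 0 higher (limma), with a median log2 fold change of -0.49. The largest falls were those of CXCL8, a chemokine, at -3.68, BCL2A1, an anti-apoptotic BCL2 relative, at -3.40, TNFAIP3, the deubiquitinase A20, at -2.19, IER3, an early response gene, at -2.06, and the adhesion molecule ICAM1 at -1.69. BIRC3 at -1.18 lay between SOD2 (-1.43) and NFKBIA (-1.15). TNFAIP8 (-0.65) was the eighth called gene and was not called without shControl replicate 1, which left 7. The genes of the list with no call included BCL2 (0.10), BCL2L1 (0.38), CFLAR (-0.20), TRAF1 and TRAF2.

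**Figure D4:**
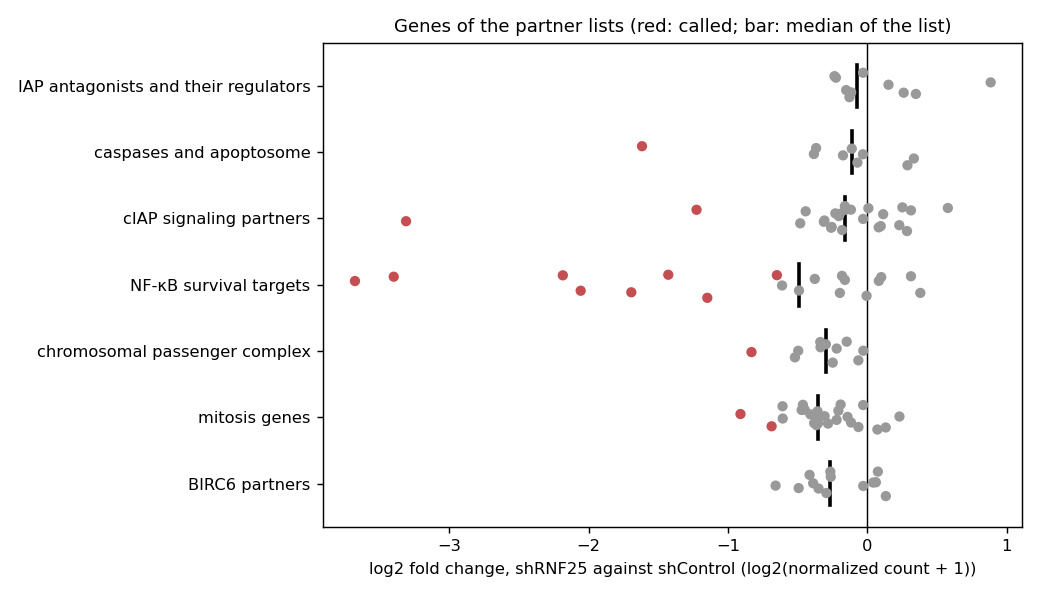
Log2 fold changes (horizontal axis, log2(normalized count + 1) scale) of the tested genes of 7 partner lists, where each point is a gene, red points are called and black bars are list medians. The NF-κB survival list holds 8 called genes and a median of -0.49, and the lists of IAP antagonists and BIRC6 partners hold no called gene.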

How the data were processed

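Total RNA of SW839 cells was depleted of ribosomal RNA and sequenced in 6 libraries. The submitters' processing notes name fastp, HISAT2, HTSeq and GRCh38, and the study's methods name DESeq2. The annotation and the strand setting are not given in the sources used here. The authors deposited a signal, the normalized count per gene, which is the read count divided by a scaling factor of each library (0.905 to 1.10). Multiplying the values by that factor returned whole reads for 100% of values within 0.01 reads. Groups were taken from the titles, which the genotype labels and library names match. The control library names do not form a numbered series, as those of shRNF25 do. Whether both groups were prepared together is not given in the sources used here. A difference in preparation therefore cannot be told apart from the knockdown. The treatment text of every library, controls included, speaks of the shRNF25 plasmid, which conflicts with the control labels. Values were used as log2(normalized count + 1). Genes with at least 10 in at least 3 libraries were fitted with limma 3.58.1 (trend, no covariates) in R 4.3.3. The steps were tested on simulated data with the same spread in both groups and no library that stood apart. That test does not cover the wider spread of these controls. Alternatives were pseudocounts of 5 and 0.5, other filters, quantile normalization, library weights, the replicate block, each library left out, and edgeR 4.0.16 and DESeq2 1.42.0 on the recovered reads, which called 2658 and 2634 genes against 2607. The genes and lists were chosen with earlier results of these data known, and named genes follow a rule: the 8 genes, their main partners, up to 5 called genes per list, neighbors wholly within 200 kb and the 3 best correlates of BIRC3 and BIRC5. Other names were chosen after their values were seen. Positions and exon lengths come from GENCODE 29, matched by symbol. Some genes of the lists are not reported here by name.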

Additional observations from a re-analysis of the deposited data

How the results depend on the processing

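Across 15 alternatives, the BIRC3 log2 fold change ranged from -1.26 to -1.06 and was called in each, with adjusted p-values from 1.37e-12 (DESeq2) to 0.0055. The other tested genes were not called under any alternative, apart from HTRA2 without shControl replicate 1, which raised the number of genes called lower from 1 to 2. A 2-fold criterion left 513 lower and 893 higher genes, and the filter at 50 left 898 higher genes, each by construction of a stricter limit. Quantile normalization turned BIRC6 to 0.0829. When each library was left out in turn, log2 fold changes spanned -0.0301 to 0.27 for BIRC2, -0.12 to 0.13 for BIRC5, -0.12 to 0.0593 for BIRC6, -0.59 to -0.24 for HTRA2, -0.47 to -0.18 for XIAP and 0.36 to 0.63 for DIABLO. The sign changes came from leaving out shControl replicate 3 for BIRC2 and BIRC5 and shControl replicate 1 for BIRC6, and the cause was not tested. The count of higher genes ranged from 748 to 1725 and that of lower genes from 813 to 1269, with 748, 824 and 831 higher genes without shRNF25 replicates 1, 2 and 3.

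BIRC2 without shControl replicate 1 (0.27, adjusted p = 0.0363) and XIAP without shControl replicate 3 (-0.47, adjusted p = 0.0463) passed the adjusted p-value but not the 1.5-fold criterion. Same-numbered libraries of the groups did not deviate together (correlations of -0.06, -0.09 and 0.05). With 3 libraries per group this cannot exclude a pairing, and none was assumed in the main fit. With the replicate block, BIRC3 stayed at -1.18 (adjusted p = 0.000184) and no call among the 7 genes changed. BIRC7, at 2 to 5 reads, and DIABLO, at 32 to 70, rest on few reads, which for DIABLO may not be all reads of the gene. DIABLO gave no value with the filter at 50.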

Other observations

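Next to the cIAP genes on chromosome 11, TMEM123 and MMP7 were the other protein-coding genes of GENCODE 29 whose whole span lay within 200 kb of BIRC3 or BIRC2. Genes that reach only partly into this window were not counted. TMEM123, a membrane mucin gene beyond BIRC2, was at 9065, 5469 and 5635 in shControl and 4996, 4894 and 5055 in shRNF25, with a log2 fold change of -0.39 (adjusted p = 0.155 from limma). MMP7, a matrix metalloproteinase gene, was below the filter, at 1.85 to 6.63 normalized counts.

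The genes whose levels ran most closely with BIRC3 over the 6 libraries were CLDN12 (Pearson r = 0.997), ERAP1 (0.997) and RGMA (0.995). CLDN12, a claudin gene, was at 1040.0 ± 131 in shControl and 575 ± 22.6 in shRNF25, and ERAP1, an aminopeptidase of antigen processing, at 1315 ± 127 and 767 ± 31.5 (SD, n = 3). Of 16553 genes compared, 621 had an r above 0.95 with BIRC3, and 24 had one with BIRC5. The closest to BIRC5 were CWF19L1 (0.988), AC009237.15 (0.983) and GLE1 (0.983), of which AC009237.15 had mean normalized counts of only 8.87 and 8.05 in the 2 groups. These are correlations of log2 values over libraries that share 2 groups, given as a description.

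Matches to the κB consensus were counted in the RefSeq promoters of all tested genes that have one. Of 143 tested genes with 2 or more matches in a promoter, as in BIRC3, 22 were called lower (15.4%) and 7 higher (4.90%). BIRC3 is itself among the 22. Each gene was counted by its promoter with the most matches, so genes with more promoters had more chances to reach 2. Among 10344 tested genes without a match, 7.07% were called lower and 7.63% higher, and among 883 genes with 1 match 9.63% and 8.49%. Without shControl replicate 1 the share called lower among genes with 2 or more matches was also 15.4%. The difference between these shares was not tested, and this count was chosen after the BIRC3 promoter had been seen.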
